A study of Homo sapiens with 6 samples.

Results

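NAD is both a redox carrier and a substrate that sirtuins and other enzymes use up, and 10 genes of this system were followed here: 6 sirtuins (SIRT1, SIRT2, SIRT3, SIRT5, SIRT6 and SIRT7) and 4 genes that make NAD or spend its precursor (NAMPT, NMNAT1, NADSYN1 and NNMT). They were taken by gene symbol from a table of 57688 rows, where all 10 were found, and all 10 passed the filter that left 12020 genes for testing. The cells were WM3248, a human line grown from a primary melanoma, and they received siRNA directed at PPARGC1A (siPGC1a, 3 libraries) or a purchased non-targeting siRNA (siNC, 3 libraries). Either siRNA was used at 30 nM with a Lipofectamine reagent, and total RNA was taken 48 h later for stranded poly(A) libraries. PPARGC1A encodes PGC1-alpha, a transcriptional coactivator of mitochondrial genes. WM3248 is 1 line, and the labels name the reagent against PPARGC1A only as siPGC1a, without saying whether it is 1 siRNA or a pool. Whether libraries within a group come from different cultures is not stated, and p-values therefore reflect only how these libraries vary, which may be technical.

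Sirtuins remove acetyl and other acyl groups from proteins and split NAD as they do so, releasing nicotinamide. Most cells rebuild NAD from that nicotinamide: NAMPT makes nicotinamide mononucleotide, and NMNAT enzymes join it to an adenylyl group. SIRT1 deacetylates PGC1-alpha, and in mouse muscle and liver cells SIRT3 is a known target of PGC1-alpha acting with the receptor ERR-alpha. The comparison asks whether transcripts of this system differ once PPARGC1A is targeted.

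Each library held 25180000 to 26440000 reads, recovered from the steps in the deposited FPKM values (reads scaled by gene length and library size). PPARGC1A was at 0.400, 0.354 and 0.413 FPKM in siPGC1a libraries, against 0.932, 1.04 and 0.947 FPKM in siNC libraries. Its mean was 0.389 ± 0.031 FPKM in siPGC1a and 0.974 ± 0.0597 FPKM in siNC (SD, n = 3 each), a ratio of 0.400 (limma log2 difference -0.51, SE 0.066, adjusted p = 0.000234). Log2 differences are of log2(FPKM + 1) and understate those of low genes: that of PPARGC1A was -1.14 with a pseudocount of 0.1 and -1.32 by voom on recovered reads. All 10 melanocyte markers were above 0 in every library, with a summed level of 1452 to 1463 FPKM in siPGC1a and 1482 to 1523 FPKM in siNC. Of the 9 tested, S100B, the most abundant, was higher in siPGC1a (923.9 FPKM, against 801.9 FPKM in siNC), 4 were lower (DCT at 253 FPKM, against 394 FPKM in siNC, with MITF, PMEL and MLANA) and 4 did not pass. Of the 8 fibroblast markers 0 were at 0 in all 6 libraries, 3 were tested and 2 fell, with a sum of 37.1 to 39.2 FPKM in siPGC1a and 43.9 to 44.3 FPKM in siNC, most of it THY1. The 6 keratinocyte markers summed to 20.7 to 25.9 FPKM in siPGC1a and 20.6 to 21.5 FPKM in siNC, almost all KRT10, with KRT1 at 0 in every library. The 6 immune markers summed to 1.92 to 2.62 FPKM in siPGC1a and 1.78 to 2.18 FPKM in siNC, most of it CD68 (1.07 FPKM in siPGC1a, 0.743 FPKM in siNC) and CD14 (0.958 FPKM in siPGC1a, 0.993 FPKM in siNC), with PTPRC at 0 in every library, and the 4 endothelial markers in the table, led by TEK, summed to at most 0.908 FPKM in siPGC1a and 1.2 FPKM in siNC. Whether the shift in melanocyte and fibroblast markers has a part in the results below was not tested. In bulk libraries of this line, fewer cells with a transcript and less of it per cell cannot be told apart.

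Of the 10 genes, 1 was higher in siPGC1a (NAMPT), 2 were lower (NMNAT1 and SIRT3) and 7 did not pass the limma threshold of 0.05 on the adjusted p. Across all tested genes 48.1% passed in either direction, 25.6% higher and 22.5% lower, so the share of the 10 that passed, 30%, was no larger than the share of all genes. The median log2 difference of the 10 was -0.06, against 0.01 for all tested genes. Values of the groups did not overlap for 4 of the 10 (NAMPT, NMNAT1, SIRT3 and SIRT5), against 57.2% of all tested genes. NMNAT1 and NAMPT differed by more than most: the size of their log2 difference stood at percentiles 94.95 and 93.2 among tested genes, whereas that of SIRT3 stood at percentile 69.0 and that of SIRT7 at 8.83.

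**Figure D1:**
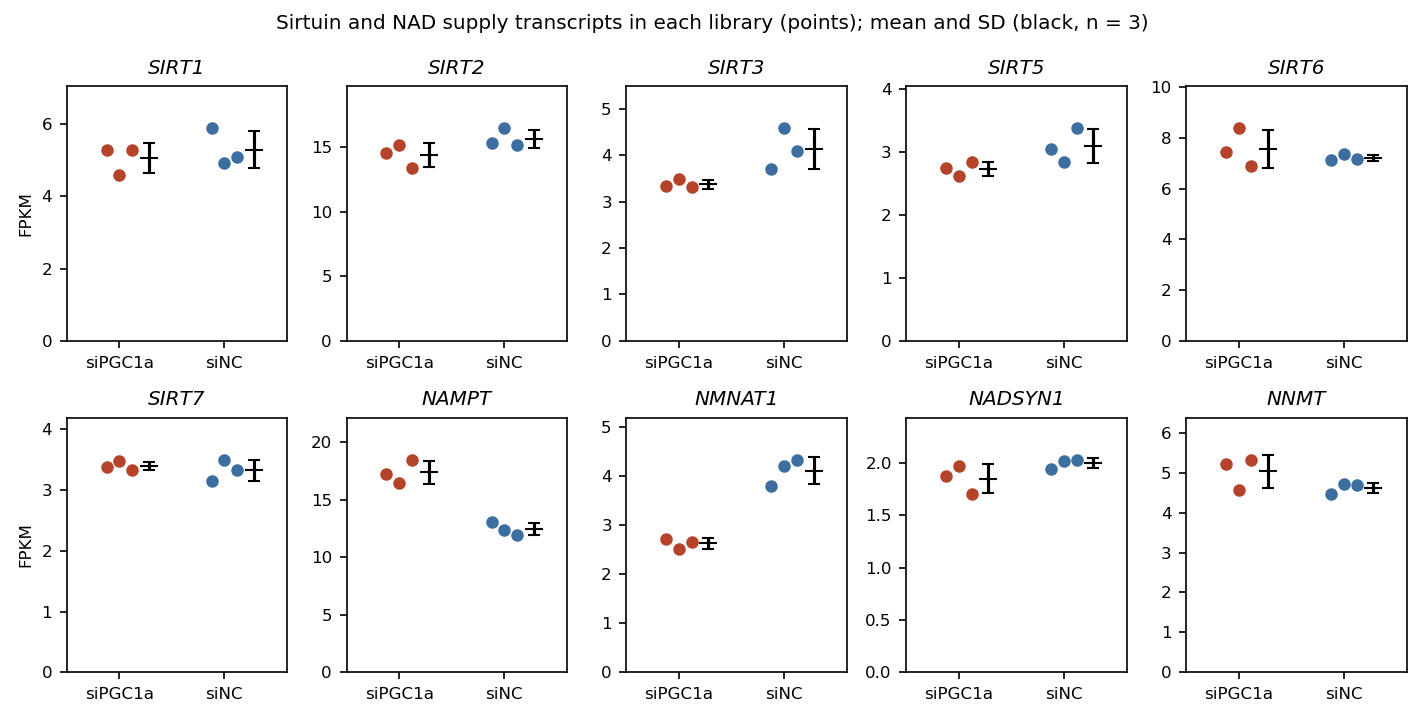
FPKM of the 10 genes in each siPGC1a library (red) and each siNC library (blue), with the mean and SD of each group in black; each panel has its own linear axis from 0. NAMPT points of siPGC1a, 16.5 to 18.4 FPKM, all lie above those of siNC, NMNAT1 and SIRT3 points of siPGC1a all lie below, and the groups of SIRT1, SIRT2, SIRT6, SIRT7, NADSYN1 and NNMT overlap.

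SIRT3, the main deacetylase of the mitochondrial matrix, was the sirtuin that passed the threshold, as lower in siPGC1a. Its level was 3.33, 3.48 and 3.31 FPKM in siPGC1a libraries, against 3.71, 4.57 and 4.08 FPKM in siNC libraries. All 3 siPGC1a values lay below all 3 siNC values, and the siNC libraries spread more widely. The mean was 3.37 ± 0.0909 FPKM in siPGC1a and 4.12 ± 0.432 FPKM in siNC (SD, n = 3 each), a ratio of 0.818 (limma log2 difference -0.23, SE 0.064, 95% interval -0.37 to -0.08, adjusted p = 0.0164). These levels correspond to about 442 to 455 reads in siPGC1a and 511 to 609 reads in siNC. The call rested on siNC replicate 2, the highest library: without it the log2 difference was -0.16 with a limma adjusted p of 0.0597, and with no filter on low values the adjusted p was 0.0783.

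SIRT3 overlaps PSMD13, a proteasome subunit gene on the other strand that starts within the annotated SIRT3 gene. Their annotated exons share 316 bases. PSMD13 moved the other way, at 54.2, 57.9 and 58.3 FPKM in siPGC1a and 44.1, 44.4 and 44.9 FPKM in siNC (limma log2 difference 0.35, SE 0.04, adjusted p = 0.000124). The kit marks strand, but how the counting treated strand is not given in the sources used here, so reads over the shared bases cannot be assigned to either gene with certainty. The promoter window of SIRT3 is shown because this gene has been described as a PGC1-alpha target in mouse. It spans 250 bases before to 50 bases after the RefSeq start, read 5′ to 3′ on the minus strand at chr11:236882-237181 (GRCh38.p14), and capitals mark GC boxes (GGGCGG), the one motif of 7 searched that matched.
SIRT3 promoter: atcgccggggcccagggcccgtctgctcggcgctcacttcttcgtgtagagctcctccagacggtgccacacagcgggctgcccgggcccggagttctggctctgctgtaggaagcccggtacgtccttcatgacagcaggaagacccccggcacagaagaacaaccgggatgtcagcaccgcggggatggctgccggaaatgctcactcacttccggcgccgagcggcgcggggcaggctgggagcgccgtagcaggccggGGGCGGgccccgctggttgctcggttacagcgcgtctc
Neither the ERR motif (AAGGTCA) nor the NRF1 motif matched there on either strand. Over all 35116 RefSeq promoter windows these were held by 3.92% and 1.24%, and the GC box by 45.0%. A window without a match says only that these letters are not in it.

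The other mitochondrial sirtuins did not pass. SIRT5, which removes succinyl and malonyl groups, was at 2.74, 2.61 and 2.84 FPKM in siPGC1a libraries, against 3.05, 2.84 and 3.37 FPKM in siNC libraries. The highest siPGC1a value, 2.839, and the lowest siNC value, 2.840, nearly touched (limma log2 difference -0.13, 95% interval -0.27 to 0.01, adjusted p = 0.104). SIRT5 also shares 1045 exon bases with an antisense transcript that averaged 0.504 FPKM. SIRT4, the third mitochondrial sirtuin and the member of the family outside the 10, averaged 2.98 ± 0.20 FPKM in siPGC1a and 3.24 ± 0.288 FPKM in siNC (limma adjusted p = 0.286). Summed over SIRT3, SIRT4 and SIRT5, the level was 8.89, 9.01 and 9.36 FPKM in siPGC1a and 10.3, 10.4 and 10.6 FPKM in siNC. As a part of all sirtuin FPKM the 3 mitochondrial genes made up 22.2 to 24.49% in siPGC1a and 24.45 to 25.6% in siNC, and these shares overlapped.

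SIRT2, a mostly cytosolic deacetylase that acts on tubulin, had the highest level of the 10 together with NAMPT, and made up 36.4 ± 1.27% of the summed sirtuin FPKM in siPGC1a and 37.3 ± 1.11% in siNC (SD, n = 3 each). It stood at 14.6, 15.2 and 13.4 FPKM in siPGC1a libraries, against 15.3, 16.4 and 15.2 FPKM in siNC libraries. The groups overlapped only in that the second siPGC1a library slightly exceeded the third siNC library (limma log2 difference -0.11, 95% interval -0.24 to 0.01, adjusted p = 0.11). SIRT2 passed the threshold, lower in siPGC1a, under quantile normalization (adjusted p = 0.0363), upper quartile scaling (0.0428) and with the replicate number as a block (0.0489). It shares 40 exon bases with NFKBIB, an inhibitor of NF-kappaB that starts within the annotated SIRT2 gene on the other strand. NFKBIB rose to 16.1 ± 0.586 FPKM in siPGC1a, against 13.6 ± 0.497 FPKM in siNC (limma adjusted p = 0.00299).

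The nuclear sirtuins SIRT1, SIRT6 and SIRT7 did not pass the threshold. SIRT1, the deacetylase of PGC1-alpha, FOXO proteins and p53, was at 5.29, 4.59 and 5.29 FPKM in siPGC1a libraries, against 5.88, 4.91 and 5.08 FPKM in siNC libraries. Its 95% interval on the log2 scale ran from -0.21 to 0.10 (limma adjusted p = 0.554). SIRT6, which acts on chromatin and in DNA repair, was at 7.44, 8.37 and 6.87 FPKM in siPGC1a, against 7.11, 7.35 and 7.17 FPKM in siNC (interval -0.08 to 0.20, limma adjusted p = 0.478). SIRT7, the nucleolar sirtuin, was at 3.37, 3.47 and 3.33 FPKM in siPGC1a, against 3.14, 3.49 and 3.33 FPKM in siNC (interval -0.09 to 0.14, limma adjusted p = 0.715). The groups of all 3 genes overlapped. Differences within these intervals could not be told from none, and the sign of all 3 turned under at least 1 other setting.

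NAMPT, the rate-limiting enzyme of NAD salvage from nicotinamide, rose in siPGC1a. Its level was 17.2, 16.5 and 18.4 FPKM in siPGC1a libraries, against 13.0, 12.4 and 12.0 FPKM in siNC libraries. Every siPGC1a library exceeded every siNC library by more than the spread within either group. The mean was 17.4 ± 1.00 FPKM in siPGC1a and 12.5 ± 0.534 FPKM in siNC (SD, n = 3 each), a ratio of 1.39 (limma log2 difference 0.45, SE 0.052, 95% interval 0.33 to 0.56, adjusted p = 0.000123). Under the 14 other settings the log2 difference was 0.39 to 0.48 and the adjusted p at most 0.00313. About 3748 to 4343 reads per siPGC1a library and 2736 to 3116 per siNC library lay on the gene.

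A pseudogene of NAMPT, NAMPTP1, was listed with a level of its own. It was at 5.18, 4.98 and 5.36 FPKM in siPGC1a libraries, against 3.63, 3.58 and 3.37 FPKM in siNC libraries, with the same log2 difference of 0.45 as NAMPT (SE 0.049, limma adjusted p = 9.14e-05). The counting may have split shared reads between the pair, so the level of NAMPT is uncertain. NAMPT also shares 786 exon bases with an antisense transcript that averaged 0.983 FPKM. The NAMPT promoter window is shown as that of the 1 gene of the 10 that rose, at chr7:106284934-106285233 (GRCh38.p14, minus strand, RefSeq), with GC boxes in capitals.
NAMPT promoter: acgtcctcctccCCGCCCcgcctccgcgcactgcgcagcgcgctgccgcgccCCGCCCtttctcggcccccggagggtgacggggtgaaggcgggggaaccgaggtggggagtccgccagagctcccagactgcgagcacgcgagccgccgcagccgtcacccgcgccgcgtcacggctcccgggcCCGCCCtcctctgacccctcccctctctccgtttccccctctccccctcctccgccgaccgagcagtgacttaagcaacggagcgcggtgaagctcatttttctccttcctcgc
It held 3 GC boxes, all read on the opposite strand as CCGCCC. The window held no canonical E-box (CACGTG, in 7.26% of all windows), AP-1 motif (TGANTCA, 7.71%), cAMP response element (TGACGTCA, 1.85%) or NF-kappaB motif (5.68%) on either strand.

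NMNAT1, the nuclear enzyme that turns nicotinamide mononucleotide into NAD, fell in siPGC1a and had the largest log2 difference of the 10. It was at 2.72, 2.51 and 2.67 FPKM in siPGC1a libraries, against 3.81, 4.20 and 4.33 FPKM in siNC libraries. The highest siPGC1a library was well below the lowest siNC library. The mean was 2.63 ± 0.109 FPKM in siPGC1a and 4.11 ± 0.270 FPKM in siNC (SD, n = 3 each), a ratio of 0.640 (limma log2 difference -0.49, SE 0.056, 95% interval -0.62 to -0.37, adjusted p = 0.000116). Under the 13 other settings that kept the gene the log2 difference was -0.64 to -0.46 and the adjusted p at most 0.00282. The level rests on about 291 to 320 reads per siPGC1a library and 464 to 504 per siNC library. The 5 NMNAT1 pseudogenes in the table were at 0 in every library. The other NMNAT genes were scarcely detected: NMNAT2 averaged 0.182 FPKM in siPGC1a and 0.180 FPKM in siNC, and NMNAT3 averaged 0.0203 FPKM in siPGC1a and 0.0167 FPKM in siNC, both below the filter.

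LZIC starts 21 bases from NMNAT1 on the other strand. It was at 14.1, 12.7 and 13.8 FPKM in siPGC1a, against 13.8, 13.2 and 14.1 FPKM in siNC (limma log2 difference -0.02, 95% interval -0.13 to 0.09, adjusted p = 0.793). The window around the shared start, at chr1:9943225-9943524 (GRCh38.p14, plus strand, RefSeq), is shown because 1 gene of the pair fell and the other did not pass, and it held a single GC box, in capitals.
NMNAT1 promoter: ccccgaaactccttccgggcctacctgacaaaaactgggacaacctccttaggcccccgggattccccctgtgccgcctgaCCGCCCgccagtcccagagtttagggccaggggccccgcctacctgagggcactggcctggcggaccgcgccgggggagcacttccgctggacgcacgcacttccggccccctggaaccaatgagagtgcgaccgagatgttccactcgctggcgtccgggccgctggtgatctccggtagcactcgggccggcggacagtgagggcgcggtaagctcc

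The 6-base word ACACCT was more frequent in the 3′ UTRs of genes that were lower in siPGC1a, and its places in the 10 genes are therefore shown. It stood in the longest annotated 3′ UTR of 48.9% of 2404 lower genes, 22.8% of 2933 higher genes and 33.1% of the 5448 that did not pass, and these UTRs had median lengths of 1806, 1109 and 1391 bases. The siRNA sequences were not given in the sources used here, and how this word was picked is not recorded. The shares use the calls of these same data, were not matched for UTR length and are not an independent test of the word. Of the 10 genes, 5 held the word, against 33.8% of the 10785 tested genes with a searched 3′ UTR, and NMNAT1 held it at 2 places, of which 1 is shown. One stretch per gene is shown, from GENCODE v29, 5′ to 3′, with the word in capitals.
NMNAT1: ctctgggaaactACACCTagttcatctgaa
SIRT2: agcaaatctctaACACCTcctagaggccaa
SIRT6: aggccaggggttACACCTgccctccgtggt
SIRT7: tggccatcgaggACACCTgcccatccggcc
NADSYN1: tcccacccacacACACCTtcctgtcctggg
NMNAT1 was the 1 of these 5 genes that fell, and SIRT3, which also fell, has no such word in a 3′ UTR of 1240 bases. NAMPT, SIRT1, SIRT5 and NNMT held no such word, in 3′ UTRs of 2798, 1797, 3293 and 808 bases. The 3′ UTR of NMNAT1 has 2797 bases. Whether the word has a part in the fall of NMNAT1 was not tested.

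NADSYN1, the NAD synthetase that amidates the product made from tryptophan or nicotinic acid, had the lowest level of the 10. It was at 1.88, 1.97 and 1.70 FPKM in siPGC1a libraries, against 1.94, 2.02 and 2.03 FPKM in siNC libraries (limma log2 difference -0.07, 95% interval -0.20 to 0.06, adjusted p = 0.325). The groups overlapped. Its neighbour across the start site, DHCR7, an enzyme of cholesterol synthesis, rose to 33.7 ± 1.23 FPKM in siPGC1a, against 28.3 ± 0.505 FPKM in siNC (limma adjusted p = 0.00105). NNMT, which methylates nicotinamide and so removes it from salvage, was at 5.23, 4.56 and 5.32 FPKM in siPGC1a libraries, against 4.47, 4.71 and 4.68 FPKM in siNC libraries. The second siPGC1a library lay within the siNC values while the other 2 lay above them (limma log2 difference 0.10, 95% interval -0.03 to 0.23, adjusted p = 0.18). Without that library NNMT was higher, with a log2 difference of 0.16 and a limma adjusted p of 0.0332.

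Because NAMPT and NMNAT1 catalyse consecutive steps, their levels were also set against each other within each library. The ratio of NAMPT to NMNAT1 FPKM was 6.34, 6.56 and 6.91 in siPGC1a libraries, against 3.42, 2.95 and 2.77 in siNC libraries. It averaged 6.605 ± 0.290 in siPGC1a and 3.05 ± 0.338 in siNC (SD, n = 3 each). That the groups of this ratio do not overlap follows from the values of NAMPT and NMNAT1 and is not a separate result. The ratio of NAMPT to NNMT, which compete for nicotinamide, was 3.29, 3.61 and 3.47 in siPGC1a and 2.91, 2.63 and 2.56 in siNC. The first ratio rests on the NAMPT and NMNAT1 differences and the second on those of NAMPT and NNMT, given above.

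**Figure D2:**
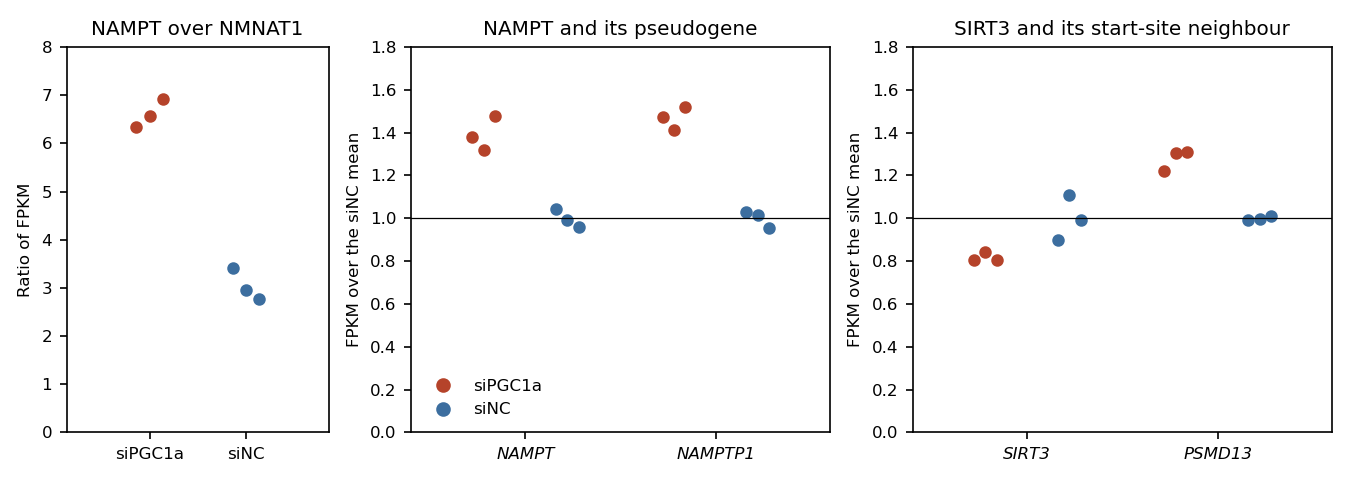
Left, the ratio of NAMPT to NMNAT1 FPKM in each siPGC1a (red) and siNC (blue) library; middle and right, FPKM of each library divided by the siNC mean of that gene, for NAMPT with its pseudogene NAMPTP1 and for SIRT3 with PSMD13. The ratio was 6.34 to 6.91 in siPGC1a and 2.77 to 3.42 in siNC, NAMPTP1 rose with NAMPT, and PSMD13 rose while SIRT3 fell.

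Over the 6 libraries the order of levels per length was SIRT2 (mean 15.0 FPKM), NAMPT (14.9), SIRT6 (7.39), SIRT1 (5.17), NNMT (4.83), SIRT3 (3.75), NMNAT1 (3.37), SIRT7 (3.36), SIRT5 (2.91) and NADSYN1 (1.92). Ranges of neighbours in that order overlapped except between NAMPT and SIRT6, SIRT6 and SIRT1, and SIRT5 and NADSYN1. The order differed between the groups: every NAMPT value was above every SIRT2 value in siPGC1a and below every one in siNC, and the mean of NMNAT1 was below those of SIRT3, SIRT5 and SIRT7 in siPGC1a (2.63 FPKM) but above those of SIRT5 and SIRT7 in siNC (4.11 FPKM). SIRT2 and NAMPT stood at percentiles 73.3 and 73.1 of the tested genes by level, and NADSYN1 at percentile 13.9.

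Around these genes, lists of the wider NAD system were compared gene by gene. Their counts stand against 48.1% of all tested genes past the threshold, 25.6% higher and 22.5% lower. Among 9 salvage genes 6 were tested, of which 2 rose, 1 fell and 3 did not pass (50% past the threshold). The median log2 difference of the 6 was 0.01, and it turned negative under upper quartile scaling, under voom and without siPGC1a replicate 2. PNP, which frees nicotinamide from its riboside and works on purine nucleosides, rose to 22.9 ± 1.05 FPKM in siPGC1a, against 15.7 ± 0.457 FPKM in siNC (limma log2 difference 0.51, SE 0.046, adjusted p = 2.75e-05). NAPRT, the entry enzyme for nicotinic acid, averaged 11.02 ± 1.06 FPKM in siPGC1a and 10.2 ± 0.278 FPKM in siNC (limma adjusted p = 0.214).

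Synthesis from tryptophan was only partly expressed. Of its 9 genes 6 were below the filter, and of the 3 tested 2 rose and 1 did not pass (66.7% past, against 48.1% of all tested genes). KYNU, kynureninase, stood at 2.14, 2.04 and 2.31 FPKM in siPGC1a libraries, against 1.09, 1.04 and 1.06 FPKM in siNC libraries (a ratio of 2.03, limma log2 difference 0.62, SE 0.059, adjusted p = 4.04e-05), and its log2 difference was 0.96 with a pseudocount of 0.1 and 1.02 by voom. QPRT, which makes the first mononucleotide of that route, averaged 39.2 ± 0.865 FPKM in siPGC1a and 35.9 ± 1.36 FPKM in siNC (limma adjusted p = 0.0323), a call lost in 8 of 14 other settings (adjusted p up to 0.30). HAAO, the enzyme between them, was listed at 0 in every library.

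The list around NNMT holds nicotinamide removal and the methionine cycle that supplies its methyl donor. Of 13 genes 10 were tested, of which 3 rose, 2 fell and 5 did not pass (median 0.06). That is 50% past the threshold, against 48.1% of all tested genes. MAT2A, which makes S-adenosylmethionine, rose to 28.8 ± 0.429 FPKM in siPGC1a, against 22.4 ± 0.718 FPKM in siNC (limma log2 difference 0.35, adjusted p = 0.000117). AHCY, which clears S-adenosylhomocysteine, averaged 101.8 FPKM in siPGC1a and 91.8 FPKM in siNC (adjusted p = 0.0156), a call lost in 6 of 14 other settings (adjusted p up to 0.283). AHCYL2, related to AHCY, fell to 3.79 ± 0.159 FPKM in siPGC1a, against 4.62 ± 0.0804 FPKM in siNC (adjusted p = 0.00323).

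**Figure D3:**
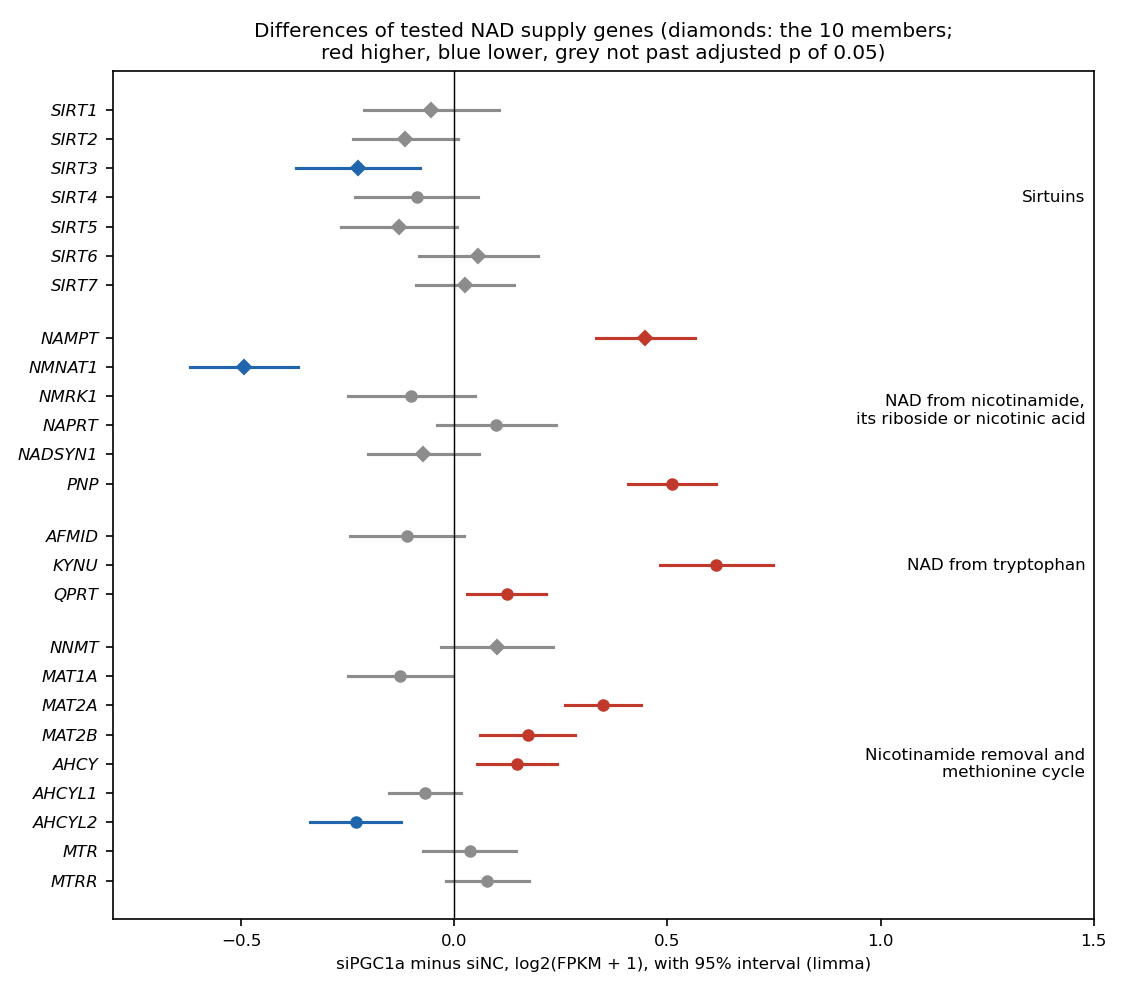
Limma log2 differences, siPGC1a minus siNC, of log2(FPKM + 1) values with 95% intervals, for the tested sirtuins, salvage, tryptophan and nicotinamide removal genes; diamonds mark the 10 genes followed here, and 1 tested gene is not shown. NMNAT1 (-0.49) lies farthest to the left and KYNU (0.62) farthest to the right, and the intervals of 6 of the 7 sirtuins include 0.

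The PARP family holds other enzymes that spend NAD. Of 17 genes 16 were tested, of which 1 rose, 8 fell and 7 did not pass, against 25.6% higher and 22.5% lower of all tested genes, with a median log2 difference of -0.13 (-0.18 to -0.13 over the other settings, with 6 to 9 lower and 0 or 1 higher). TIPARP fell to 8.06 ± 0.0386 FPKM in siPGC1a, against 12.0 ± 0.855 FPKM in siNC (limma log2 difference -0.52, SE 0.052, adjusted p = 5.19e-05). PARP3 fell to 3.83 ± 0.111 FPKM in siPGC1a, against 5.12 ± 0.063 FPKM in siNC (adjusted p = 0.00025). PARP2, a DNA repair enzyme, rose to a ratio of 1.14 (adjusted p = 0.0121), a call that ended under upper quartile scaling (0.0626). PARP1, the most abundant of the family and its main consumer of NAD, averaged 83.4 ± 0.863 FPKM in siPGC1a and 85.9 ± 1.18 FPKM in siNC (limma adjusted p = 0.33).

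NAD hydrolases, cell surface enzymes and nucleoside carriers gave 2 higher, 2 lower and 1 not past of 5 tested. That is 80% past the threshold, against 48.1% of all tested genes. NT5E, the ecto-5′-nucleotidase CD73, was at 56.8, 54.9 and 58.9 FPKM in siPGC1a libraries, against 35.8, 32.4 and 33.8 FPKM in siNC libraries (limma log2 difference 0.72, SE 0.047, adjusted p = 4.77e-06). SLC29A1, a nucleoside carrier, rose to a ratio of 1.29 (adjusted p = 0.00186). BST1, a surface ADP-ribosyl cyclase, and SARM1, an NAD hydrolase of axon degeneration, fell to ratios of 0.841 and 0.692 (adjusted p = 0.00361 and 0.0039). CD38, the related hydrolase of immune cells, was at 0.0740 FPKM in siPGC1a and 0.156 FPKM in siNC, below the filter. For NAD kinases, carriers and repair enzymes, 8 genes were tested, with 2 higher, 3 lower and 3 not past (62.5% past the threshold). NADK, the cytosolic NAD kinase, rose to 17.2 ± 0.377 FPKM in siPGC1a, against 13.8 ± 0.363 FPKM in siNC (adjusted p = 0.000301), and NNT, the mitochondrial transhydrogenase, fell to 16.0 ± 0.795 FPKM in siPGC1a, against 18.6 ± 0.464 FPKM in siNC (adjusted p = 0.00553). NAXE, an NAD(P)HX epimerase, rose to a ratio of 1.11 and NUDT13 fell to a ratio of 0.677, calls lost in 5 of 14 and 6 of 13 other settings (adjusted p up to 0.259 and 0.157).

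The zinc-dependent deacetylases, which do not use NAD, gave 1 higher, 4 lower and 5 not past of 10 tested, a share past the threshold of 50%, near the 48.1% of all tested genes, against 14.3% (1 of 7) of the sirtuins. Over the other settings 0 to 3 sirtuins were lower and 0 higher, and 3 to 5 zinc-dependent deacetylases were lower and 1 higher. The difference between the families was not tested. HDAC1 rose to 48.1 ± 1.16 FPKM in siPGC1a, against 41.9 ± 0.471 FPKM in siNC (limma adjusted p = 0.00203). HDAC3 fell to 13.9 ± 0.23 FPKM in siPGC1a, against 18.3 ± 0.24 FPKM in siNC (adjusted p = 6.65e-05), and HDAC5 fell to a ratio of 0.799.

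Genes of proteins that SIRT3 or SIRT5 are known to deacylate gave 2 higher, 2 lower and 9 not past of 13 tested. That is 30.8% past the threshold, against 48.1% of all tested genes. SOD2, the mitochondrial superoxide dismutase, rose to 5.45 ± 0.061 FPKM in siPGC1a, against 3.23 ± 0.0729 FPKM in siNC (limma log2 difference 0.61, adjusted p = 9.33e-06). PPIF, cyclophilin D, rose to 51.2 ± 2.25 FPKM in siPGC1a, against 34.9 ± 1.73 FPKM in siNC (adjusted p = 2.87e-05). CPS1, carbamoyl phosphate synthetase, fell to a ratio of 0.828, and SDHA, which has near-identical copies, fell to a ratio of 0.795, a call lost in 6 of 13 other settings (adjusted p up to 0.091). SIRT1 partners and nuclear substrates gave 1 higher, 3 lower and 8 not past of 12 (33.3% past the threshold). E2F1 rose to 14.5 ± 0.452 FPKM in siPGC1a, against 8.89 ± 0.448 FPKM in siNC (adjusted p = 1e-05). NR1H2, the oxysterol receptor LXR-beta, fell to 8.21 ± 0.619 FPKM in siPGC1a, against 15.2 ± 1.00 FPKM in siNC (limma log2 difference -0.82, adjusted p = 1.17e-05), and FOXO3 fell to a ratio of 0.654. Over all these lists, without the 10 genes, 80 were tested, of which 15 rose, 24 fell and 41 did not pass, which is 48.8% past the threshold against 48.1% of all tested genes. MAT2A, NNT, PARP2, SARM1 and SOD2, and the markers PMEL and KRT10, overlap exons of tested opposite-strand genes. They carry the same kind of strand uncertainty as SIRT3. The largest overlap among them is that of SARM1, which shares 4421 exon bases with SLC46A1.

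**Figure D4:**
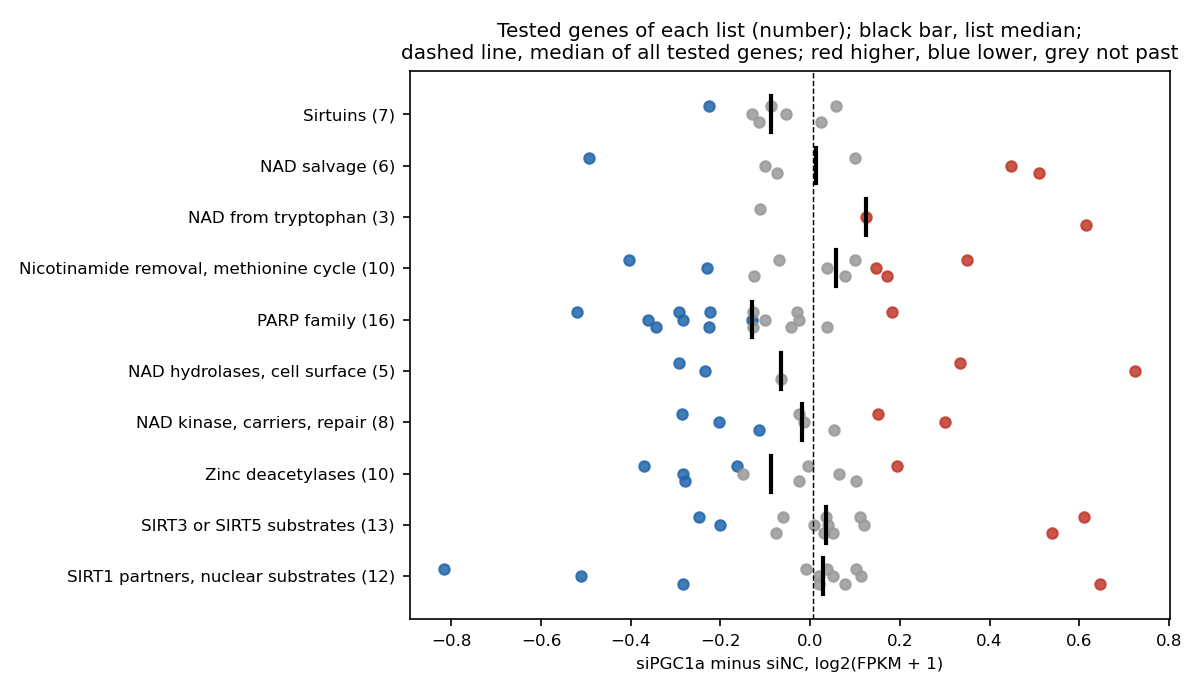
Each point is a tested gene of a list, placed by its siPGC1a minus siNC difference in log2(FPKM + 1); red points passed the limma threshold as higher, blue as lower, grey did not pass. Black bars mark list medians, from -0.13 for the PARP family to 0.12 for the 3 tryptophan route genes, and the dashed line marks the median of all tested genes, 0.01.

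By Pearson correlation of log2(FPKM + 1) over the 6 libraries, the genes whose pattern was most like that of NMNAT1 were DAB2IP, AC061992.1 and PKIG, at r = 0.998, 0.997 and 0.996. All 6 values share the split between the groups, which sets most of such a correlation. PKIG, an inhibitor of protein kinase A, was at 9.28, 8.57 and 9.05 FPKM in siPGC1a libraries, against 14.8, 15.7 and 16.1 FPKM in siNC libraries. DAB2IP, a GTPase-activating protein, averaged 2.37 ± 0.0528 FPKM in siPGC1a and 3.03 ± 0.0963 FPKM in siNC.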

How the data were processed

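RNA sequencing libraries of WM3248 cells (3 siPGC1a, 3 siNC) were deposited by the authors as FPKM per gene and library. STAR, Picard, featureCounts and DESeq2, with hg19, appear, with no version or role, in the tools and builds listed per the submitters' processing notes. The labels gave groups and replicate numbers. Genes averaging 1 FPKM or more, and PPARGC1A regardless, were compared as log2(FPKM + 1) in R 4.3.3 by limma 3.58.1 with a mean-variance trend and no block (two-sided tests, Benjamini-Hochberg over 12020 genes, threshold 0.05). Fold changes on this scale understate those of low genes. The code was tested on simulated data.

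Depth came from FPKM steps of short miRNA genes with GENCODE v29 exon lengths (55001 symbols matched). Of the low values, 92.8 to 93.3% lay within 0.1 of a whole read, where chance gives 20.0%. Read numbers of single genes assume v29 lengths. That annotation is of another build than the table and gave lengths, neighbours and 3′ UTRs, so no coordinates come from it. Promoters and their coordinates are RefSeq's on GRCh38.p14. Of the 10 genes, 8 matched a promoter, and SIRT7 and NNMT did not. Motifs were searched on both strands.

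No library copied another: recovered reads gave a chi-square over its degrees of freedom of 2.02 to 6.26 between libraries of a group. The 10 genes and all lists were chosen with earlier results of these data known. Besides the 10, the text names PPARGC1A, up to 2 higher and 2 lower genes past the threshold per list by smallest adjusted p, the most abundant marker of each cell type, and the 3 genes most like NMNAT1. SIRT4, NAPRT, NMNAT2, NMNAT3, HAAO, PARP1, CD38, KRT1, PTPRC, CD68, DCT, MITF, PMEL, MLANA, LZIC, PSMD13, NFKBIB, DHCR7 and NAMPTP1 were named after their values were seen. The other settings were another pseudocount, other filters and scalings, limma without the trend, a replicate block, leaving out each library and, added after seeing the data, voom on recovered reads. Some items withheld for evaluation are not reported here.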

Additional observations from a re-analysis of the deposited data

How the results depend on the processing

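NAMPT higher and NMNAT1 lower kept their direction and call in every setting that tested them. The number of the 10 genes called lower, 2 as reported, was 1 without a filter, 0 at a mean FPKM of at least 5 (where 4 of the 10 were tested, without NMNAT1 and SIRT3) and 4 under upper quartile scaling, which added SIRT2 and SIRT5. Leaving out each library gave 1 to 2 lower and 1 to 2 higher, with 1 lower without siNC replicate 2 and 2 higher without siPGC1a replicate 2. PPARGC1A fell in every setting (log2 difference -1.32 to -0.48, limma adjusted p at most 0.0027). Upper quartile scaling moved the split of all calls to 2138 higher and 3395 lower, against 3075 and 2707 as reported. The filter at a mean FPKM of 5 gave 2519 higher and 1607 lower.

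Directions turned for 3 genes that were not called. Leaving out 1 library at a time gave log2 differences of -0.097 to 0.012 for SIRT1 (positive without siNC replicate 1 or siPGC1a replicate 2), -0.0100 to 0.115 for SIRT6 (negative without siPGC1a replicate 2) and -0.0059 to 0.053 for SIRT7 (negative without siNC replicate 1). SIRT7 was at -0.019 under upper quartile scaling. The cause was not tested. Same-numbered libraries did not deviate together in each pair (r of 0.08, 0.26 and -0.06), so the replicate block is not used; with it 3 of the 10 genes were lower, SIRT2 added, and 3253 genes were higher and 2826 lower over the table. About 291 to 320 reads of NMNAT1 per siPGC1a library limit the precision of low genes.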
